A study of Mus musculus with 7 samples.

Results

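The 58 genes described here encode the ligands, receptors, inhibitors, SMADs and target genes of TGF-β, BMP and myostatin signaling, and were taken as a fixed list and found by gene symbol, older symbols included, in the 2 deposited tables of m6A peaks. An m6A peak is a stretch of mRNA that is recovered more often by an antibody against N6-methyladenosine (the IP library) than in the input RNA. Of the 58 genes, 20 had a peak in the table for regenerating muscle, 34 had a peak in the table for C2C12 myoblasts, a mouse cell line that can be differentiated into myotubes, 16 had a peak in both and 20 in neither. The muscle table came from METTL3 cKO mice (Pax7CreERT2; METTL3 flox/flox) and CTL mice (Pax7CreERT2; METTL3 wt/wt) on a C57BL/6 background, with 1 IP and 1 input library per genotype at day 2 after CTX injection. Mice of both genotypes carried the Cre allele and received tamoxifen before CTX, a toxin that destroys muscle fibres. The ages of the mice and the number of mice behind each library are not given in the sources used here. Cre was driven from Pax7, so deletion is directed to muscle stem cells (MuSCs), while other cells of the injured muscle keep the gene. METTL3 is the catalytic subunit of the complex that writes m6A.

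The C2C12 table came from 2 IP libraries and 1 input library. The labels give the IP libraries the genotype Knockout and the input library Normal, with no gene named, and they do not say whether the cells had been differentiated. Neither table holds read counts, so the depth of all 7 libraries is unknown. The muscle table gives 1 fold enrichment of IP over input for each peak across the 4 muscle libraries, not a value per genotype. The C2C12 table gives positions and annotation with no enrichment. No replicate error could therefore be computed, no difference was tested, and all values below describe these 2 tables. The peaks of the muscle table are those the authors listed in a comparison of the genotypes, so a gene that is missing from it may have had no peak or a peak that was not listed. No peak is listed for Mettl3 in either table, and the knockout was not checked here.

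Ligands of this family are secreted as dimers, and several are held inactive in the matrix until they are released. They bring together type I and type II receptor kinases, which phosphorylate SMAD2 and SMAD3 (TGF-β, activin, myostatin) or SMAD1 and SMAD5 (most BMPs), and these enter the nucleus with SMAD4. In skeletal muscle, myostatin and activins limit muscle mass, TGF-β is known to hold back myoblast differentiation and to promote fibrosis, and BMP signaling is known to sustain proliferation of MuSC progeny and to induce Id genes.

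The 20 genes with a muscle peak are 34.5% of the 58, while 16.9% of the 21900 protein-coding genes of the RefSeq annotation had one. The 34 genes with a C2C12 peak are 58.6%, against 17.6% of protein-coding genes, and the 16 genes in both tables are 27.6%, against 7.32%. Of the 20 genes in the muscle table, 80.0% were also in the C2C12 table, where 43.2% of all protein-coding genes of the muscle table were. Of the 34 genes in the C2C12 table, 47.1% were also in the muscle table, against 41.4%. The last pair of shares is close, and the others are further apart. The background holds genes that neither sample expresses, and the members were also longer than other genes, with a median genomic span of 35328 bp against 17146 bp. The part of expression and of gene length in these shares was not tested. The median span was 37573.5 bp for members in neither table, 37722 bp for those in the C2C12 table and 68731.5 bp for those in the muscle table. Over all protein-coding genes of each table it was 22513 bp for C2C12 and 28950 bp for muscle. These spans include introns and are not transcript lengths.

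**Figure D1:**
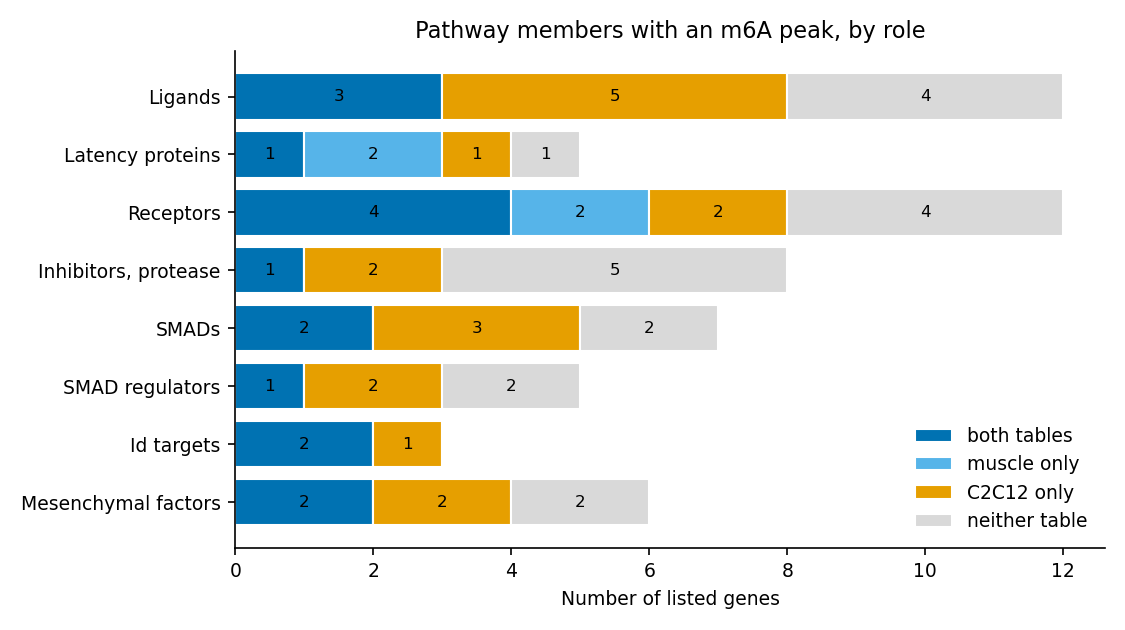
Number of listed genes (horizontal axis) in each role (vertical axis), split by whether a gene had a peak in both tables, in 1 of them or in neither. Genes in the muscle table alone are found among the latency proteins and receptors, 2 each. Of the 8 inhibitors and proteases, 5 were in neither, as were most protein-coding genes.

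The plot of members by role gives the counts, which are small and were not tested between roles, and the shares of all protein-coding genes to set them against are the 16.9% and 17.6% above. Among 12 ligands, 3 had a muscle peak and 8 a C2C12 peak. Among 12 receptors, 6 had a peak in each table. All 3 Id genes had a C2C12 peak and 2 of them a muscle peak. By the shares above, most protein-coding genes are in neither table, so being in neither does not set a gene apart. The genes in neither table included Mstn, which encodes myostatin and is made mainly by muscle fibres, its receptor gene Acvr2b and its antagonists Fst and Fstl3. They also included Tgfbr1, Tgfbr3, Bmpr1b, Ltbp4, Inha, Bmp2, Bmp6, Nog, Chrd, Bambi, Smad2, Smad6, Smurf1, Smurf2, Twist1 and Twist2. The gene Tgfbr1, which encodes the type I partner of the TGF-β type II receptor, was thus in neither table, while Tgfbr2 was in both.

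Muscle at day 2 after CTX holds invading leukocytes, fibroblasts and endothelial cells beside MuSCs, and a peak in bulk RNA cannot be assigned to one of them: fewer cells of a type and less RNA per cell cannot be told apart. The labels give the cell type as muscle stem cell and the source as muscle. As the tables hold no expression, only peaks could be counted. Of 9 MuSC and myoblast markers, 5 had a muscle peak (Pax7, Myod1, Myog, Des and Itga7), as did 3 of 8 macrophage and leukocyte markers (Ptprc, Itgam and Cd14). So did 2 of 7 fibroblast markers, 2 of 6 endothelial markers and 1 of 8 muscle fibre markers, Ttn, which had 27 peaks. In C2C12, 4 of the 9 myoblast markers, 4 of 7 fibroblast markers, 1 of 8 leukocyte markers and no fibre or endothelial marker had a peak. Over all protein-coding genes, 16.9% had a muscle peak and 17.6% a C2C12 peak. The marker lists are short, and their shares were not tested against these.

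In muscle, the 20 members had 44 of the 5412 peaks of the table. Where each gene was represented by its strongest peak, that is, its most enriched one, the median fold enrichment was 25.8 over members and 19.3 over all 3983 genes, and 14 of the 20 members were at or above the latter. Over all peaks the medians were 12.8 for members and 12.9 for the table, so members stood above the table by the strongest peak and level with it over all peaks. Members had 2.2 peaks per gene against 1.36, and 9 of 20 (45%) had at least 2 peaks against 25% of all genes. With the mean over the peaks of a gene, the medians were 20.8 for members and 16.8 for all genes. The part of peak number in these medians was not tested. Bmpr2 and Inhba, 2 of the 20 members, were in the top 10% of genes, which begins at a fold enrichment of 214. The share of members there thus equals that of all genes.

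**Figure D2:**
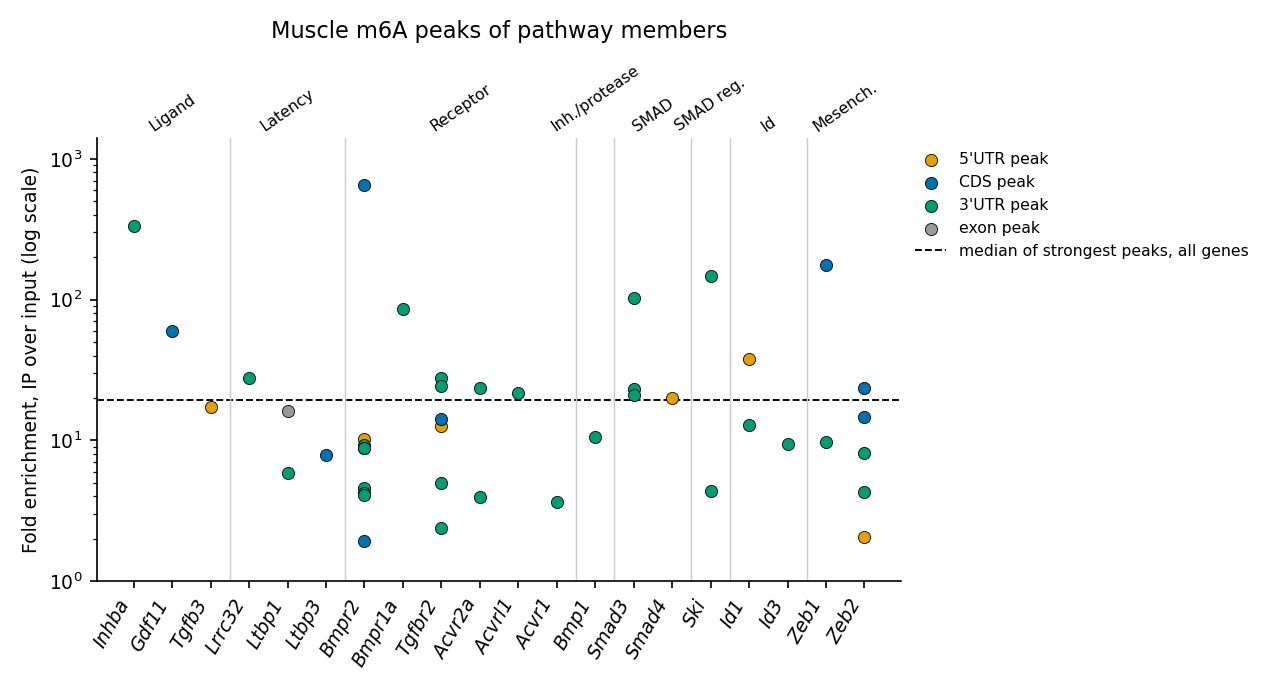
Fold enrichment of IP over input (vertical log axis) of each of the 44 muscle peaks of the 20 members (horizontal axis, grouped by role), coloured by the annotated place of the peak, with the median of the strongest peaks of all 3983 genes as a dashed line at 19.3. Bmpr2 stands highest at 652, and its other 8 peaks lie at 10.3 or below.

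Among the ligands, Inhba had the highest value. Inhba encodes the βA subunit of activin A, and its only muscle peak, of 451 bp in the 3′UTR (chr13:16026972-16027422, + strand, GRCm38), had a fold enrichment of 334, which ranked 217 of 3983 genes, with 1 GGAC site. Gdf11, which encodes a ligand closely related to myostatin, had a peak of 927 bp in the coding sequence (CDS) over 2 exon blocks, with a fold enrichment of 60.3 and 4 GGAC sites. Tgfb3 had a 5′UTR peak of 480 bp at 17.3, which begins at the start of the gene, and it was the only TGF-β gene in the muscle table. GGAC is the form of the m6A consensus sequence whose sites the authors listed for each peak.

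Of the genes for proteins that hold TGF-β latent, 3 had muscle peaks. Lrrc32 encodes GARP, which presents latent TGF-β on cell surfaces, and had a 3′UTR peak of 598 bp at a fold enrichment of 27.9. Ltbp3, a latent TGF-β binding protein gene, had a CDS peak over 3 exon blocks at 7.84. Ltbp1, another gene of that family, had a peak of the class exon at 16.2 and a 3′UTR peak at 5.9. The former joins 2 exon blocks, of which the first ends at position 75151434 of chromosome 17, and the place listed for its GGAC site runs into the start of the second. The bases at the start of the second block are shown because this is the part of a listed site among these members that the sequences used here cover. The capitals mark the bases of the listed place that fall in this block, the bases before them in the first block were not read, and the sequence begins 29 bases after a RefSeq start site within the gene (chr17:75178810-75178830, + strand, RefSeq GRCm38.p6).
Ltbp1: ACcactggatagagagagaga

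Receptors held 20 of the 44 muscle peaks, 15 of them in the 3′UTR. Bmpr2, which encodes the BMP type II receptor, had 9 peaks, a number that 4 genes of the table reach. Its CDS peak of 720 bp (chr1:59867625-59868344, + strand) had a fold enrichment of 652, which ranked 76 of 3983 genes, while a smaller CDS peak before it had 1.94. Its 6 3′UTR peaks, spread from 59871042 to 59875537, had fold enrichments of 4.1, 4.56, 8.85, 9.36, 8.8 and 4.25 in 5′ to 3′ order. Its 5′UTR peak, at 10.3, was the only member peak outside the RefSeq span of its gene: its midpoint lies upstream, at -295 bp from the annotated start. The 9 peaks of Bmpr2 thus ran over more than 2 orders of magnitude, with 1 peak far above the other 8.

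Tgfbr2, which encodes the TGF-β type II receptor, had 6 peaks with a narrower range. The highest were 3′UTR peaks of 181 bp at a fold enrichment of 27.9 (chr9:116088671-116088851, − strand) and of 601 bp at 24.2. The CDS peak, at 14.2, held 6 GGAC sites, and the 5′UTR peak, at 12.7, and the strongest peak held none. The remaining 3′UTR peaks were at 4.99 and 2.4. Only 17 genes of the table have as many peaks as Tgfbr2.

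The other receptor genes had 1 or 2 peaks, all in the 3′UTR. Bmpr1a, which encodes a BMP type I receptor, had a peak of 630 bp at 85.7. Acvr2a, the gene of an activin type II receptor, had peaks at 23.7 and 3.94. Acvrl1, the gene of the endothelial type I receptor ALK1, had a peak at 21.6. Acvr1, the gene of the BMP type I receptor ALK2, had a peak of 121 bp at 3.67 with no GGAC site, the lowest value among the strongest peaks of the 20 members. Among inhibitors and proteases, Bmp1 alone had a muscle peak, a 3′UTR peak at 10.6 with 5 GGAC sites. Despite its name, Bmp1 encodes a procollagen protease that also releases latent ligands.

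Of the SMAD genes, 2 of 7 had muscle peaks. Smad3, the transducer of TGF-β and activin signals, had 3 peaks, all in the 3′UTR, of 1858 bp at a fold enrichment of 102 (chr9:63648504-63650361, − strand), 570 bp at 23.1 and 630 bp at 21.2. Smad4, the partner of all receptor-activated SMADs, had a 5′UTR peak at 19.9. Ski, which encodes a corepressor of SMADs, had a 3′UTR peak of 1945 bp over 2 exon blocks at 147 (chr4:155155689-155158049, − strand) with 7 GGAC sites, and a second 3′UTR peak at 4.41. These 1858 bp and 1945 bp peaks of Smad3 and Ski were the longest of the 44.

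Id1 and Id3 encode proteins that block the binding of myogenic factors such as MyoD to DNA and are direct targets of BMP signaling. Id1 had a 5′UTR peak of 179 bp at a fold enrichment of 38.1 (chr2:152736251-152736429, + strand) and a 3′UTR peak of 714 bp at 12.9 with 6 GGAC sites. Id3 had a 3′UTR peak over 2 exon blocks at 9.42. Zeb1 and Zeb2 encode zinc finger repressors of the epithelial state, and Zeb1 is also expressed in myoblasts. Zeb1 had a CDS peak of 959 bp at 175, which ranked 500 of all genes, and a 3′UTR peak at 9.75. Zeb2 had 5 peaks, of which the highest was a CDS peak of 931 bp at 23.4 with 8 GGAC sites, the most of any member peak. Its other peaks were a second CDS peak at 14.7, 3′UTR peaks at 8.1 and 4.31 and a 5′UTR peak at 2.05.

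The annotated place of the peaks is set beside that of the whole table in the plot of peak classes. Of the 44 member peaks, 29 lay in the 3′UTR, which is 65.9% (95% Wilson confidence interval 51.1 to 78.1), against 48% of all peaks. The share in the CDS was 18.2% (9.51 to 32) against 31.9%, and that in the 5′UTR 13.6% (6.4 to 26.7) against 5.14%. The class exon held 2.27% of member peaks against 14.9% of all peaks. That is 1 of the 44 member peaks and 806 of the 5412 peaks of the table. The 3′UTR shares therefore rest on unlike mixes of classes. Without the class exon the share of the table would rise more than that of members. The gap would then be narrower, by an amount that was not computed here. The intervals treat peaks as independent and cover counting error only, and Bmpr2 alone gave 6 of the 29 3′UTR peaks. With 1 peak per gene, the strongest, the 3′UTR share was 55% (34.2 to 74.2) against 46.5%, an interval that holds the value of the table.

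A GGAC site was listed in 32 of the 44 member peaks, 72.7% (58.2 to 83.7), close to the 70.6% of all peaks. Of the strongest peaks of the 20 members, 18 held a site, 90% (69.9 to 97.2), against 74.1%, an interval that holds the value of the table. The exceptions were Acvr1 and Tgfbr2. Per kb the member peaks held fewer sites, 3.63 against 4.63, and they were longer, with a median of 405 bp against 360 bp. Fold enrichment rose with length across the member peaks (Spearman's rho 0.67) as it did across all peaks (0.76). These correlations run across peaks of the same libraries, which are not independent replicates.

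**Figure D3:**
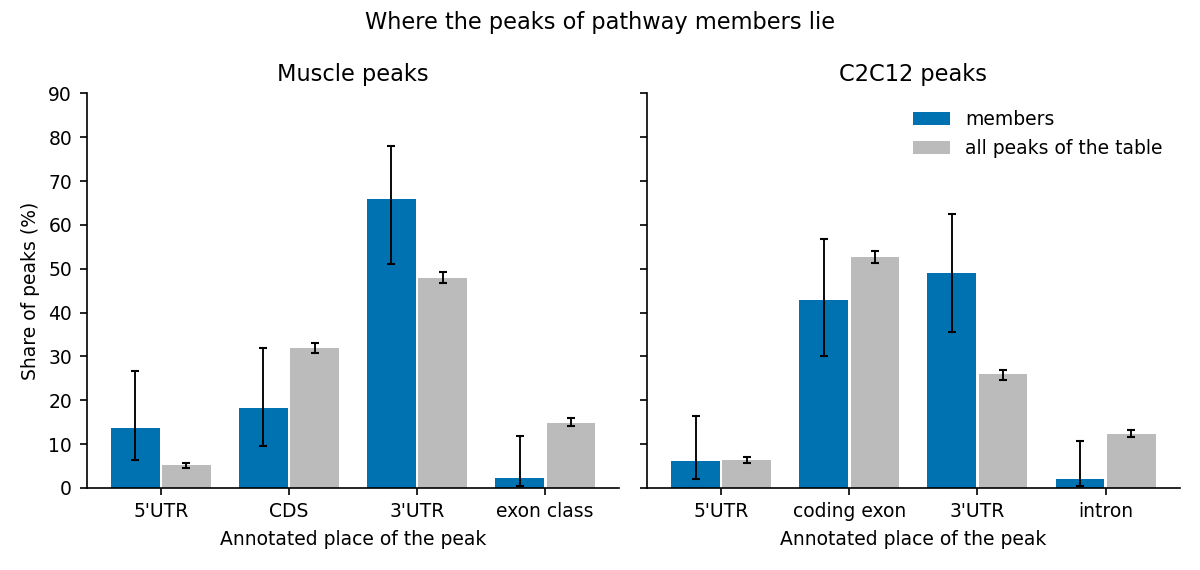
Share of peaks in percent (vertical axis) by the annotated place of the peak (horizontal axis), for the members (blue, 44 peaks in muscle and 49 in C2C12) and for all peaks of each table (grey), with 95% Wilson intervals as error bars. The 3′UTR share of members is above that of all peaks in both tables, 65.9% against 48% in muscle and 49.0% against 25.9% in C2C12.

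In C2C12 the 34 members had 49 of 5433 peaks. The C2C12 table has no enrichment, so genes were compared by the length their peaks cover, which had a median of 439.5 bp over members and 342 bp over all 3969 genes. At least 2 peaks were found in 13 of 34 members (38.2%), against 25.8% of all genes. Of the 49 peaks, 24 lay in the 3′UTR, which is 49.0% (35.6 to 62.5) against 25.9% of all peaks, and 42.9% (30 to 56.7) in coding exons against 52.6%. Only 1 peak was annotated to an intron (2.04% against 12.4%), that of Smad5. Members thus had the higher 3′UTR share over all peaks in both tables, which share 16 genes of the list. In muscle, with 1 peak per gene, the interval held the value of the table. In C2C12, with the longest peak of each gene, the member share was 50%, and the same over all genes is not given here. The C2C12 shares also rest on unlike mixes of classes, as the intron shares show.

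**Figure D4:**
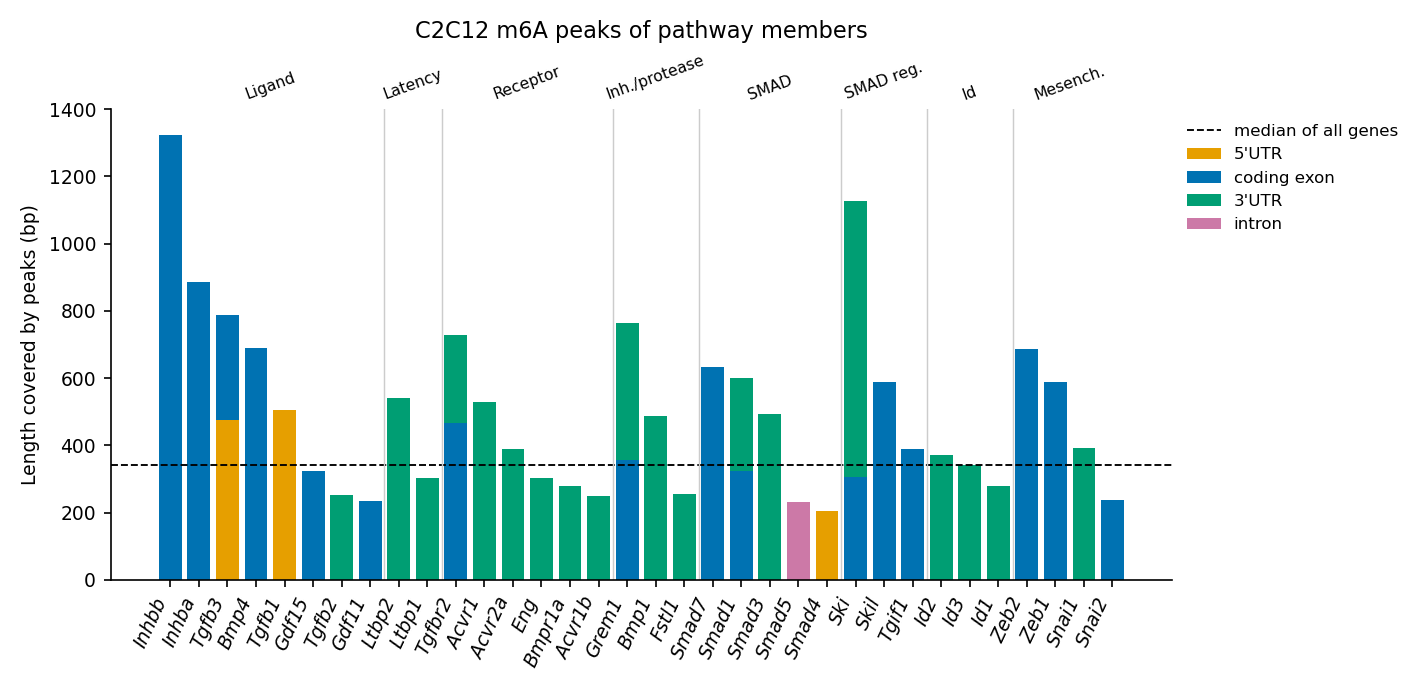
Length in bp covered by C2C12 peaks (vertical axis, from 0) for each of the 34 members with a peak (horizontal axis, grouped by role), stacked by the annotated place of the peaks, with the median of all 3969 genes as a dashed line at 342 bp. Inhbb, Ski and Inhba have the longest bars, and the bars of the ligands are mostly coding while those of the receptors are mostly 3′UTR.

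The ligands carried their C2C12 peaks mostly in coding exons, 7 of 10. Inhbb, which encodes the βB subunit of activin B, had 1 coding peak of 1324 bp, which ranked 132 of 3969 genes by covered length. Inhba had coding peaks of 284 bp and 601 bp, together 885 bp. Bmp4, a BMP ligand gene, had a coding peak of 690 bp, Gdf15, the gene of a stress-induced ligand, one of 324 bp and Gdf11 one of 233 bp. The TGF-β genes were all 3 in the C2C12 table, with a 5′UTR peak of 505 bp in Tgfb1, a 3′UTR peak of 251 bp in Tgfb2, and a 5′UTR peak of 476 bp and a coding peak of 313 bp in Tgfb3.

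In contrast, 6 of the 7 receptor peaks lay in the 3′UTR, 1 each in Tgfbr2, Acvr1, Acvr1b, Acvr2a, Bmpr1a and Eng, whose product endoglin is a TGF-β coreceptor. The exception was a coding peak of 466 bp in Tgfbr2, which brought that gene to 727 bp. Bmpr2, first of all members in muscle, had no C2C12 peak. The peaks of Ltbp1 (302 bp) and Ltbp2 (542 bp in 2 peaks), and of Fstl1, a follistatin-like secreted protein gene (254 bp), were also in the 3′UTR. Grem1, the gene of the BMP antagonist gremlin, had a coding peak of 357 bp and a 3′UTR peak of 407 bp. Bmp1 had 2 peaks of the class 3′UTR, of which 1 lies 67 bp from the start of the transcript named for it, a noncoding transcript.

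Inside the cell, 5 of 7 SMAD genes and 3 of 5 SMAD regulators had a C2C12 peak. Smad7, which encodes an inhibitory SMAD, had coding peaks covering 634 bp, while Smad6, the gene of the other inhibitory SMAD, had a peak in neither table. Smad5 had its intron peak of 230 bp, and Smad1, a BMP transducer, had a coding and a 3′UTR peak covering 599 bp. Smad3 had 2 3′UTR peaks covering 493 bp, and Smad4 a 5′UTR peak of 204 bp. Ski had 4 peaks covering 1127 bp, which ranked 200 of all genes, and only 81 genes have as many peaks. Skil, its paralog, had 2 coding peaks covering 588 bp, and Tgif1, another SMAD corepressor gene, had 1 of 389 bp. Id1, Id2 and Id3 each had 1 3′UTR peak, of 279 bp, 372 bp and 341 bp. Of the mesenchymal factors, Zeb2 (686 bp), Zeb1 (587 bp) and Snai2 (236 bp) had coding peaks and Snai1 a 3′UTR peak of 391 bp.

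To ask whether the 16 genes of both tables carried their peaks at the same place, peaks were compared by their distance from a start site, because most positions of the C2C12 table lie outside their genes on the genome build of the muscle table. The C2C12 distance is as deposited, and the muscle distance was counted from whichever RefSeq start site of the gene brought the peaks closest. Of the 26 C2C12 peaks of these genes, 15 overlapped a muscle peak by this measure, which is 57.7%, and the share over all 2338 C2C12 peaks of shared genes was 53.5%. By gene, 10 of 16 members (62.5%) had an overlap, against 60.7% of 1571 genes. Counted from the start of the RefSeq gene alone, 12 of the 26 C2C12 peaks (46.2%) overlapped, against 47.6%, and Bmpr1a and Zeb2 lost their overlaps. The members were thus close to the background by either count.

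**Figure D5:**
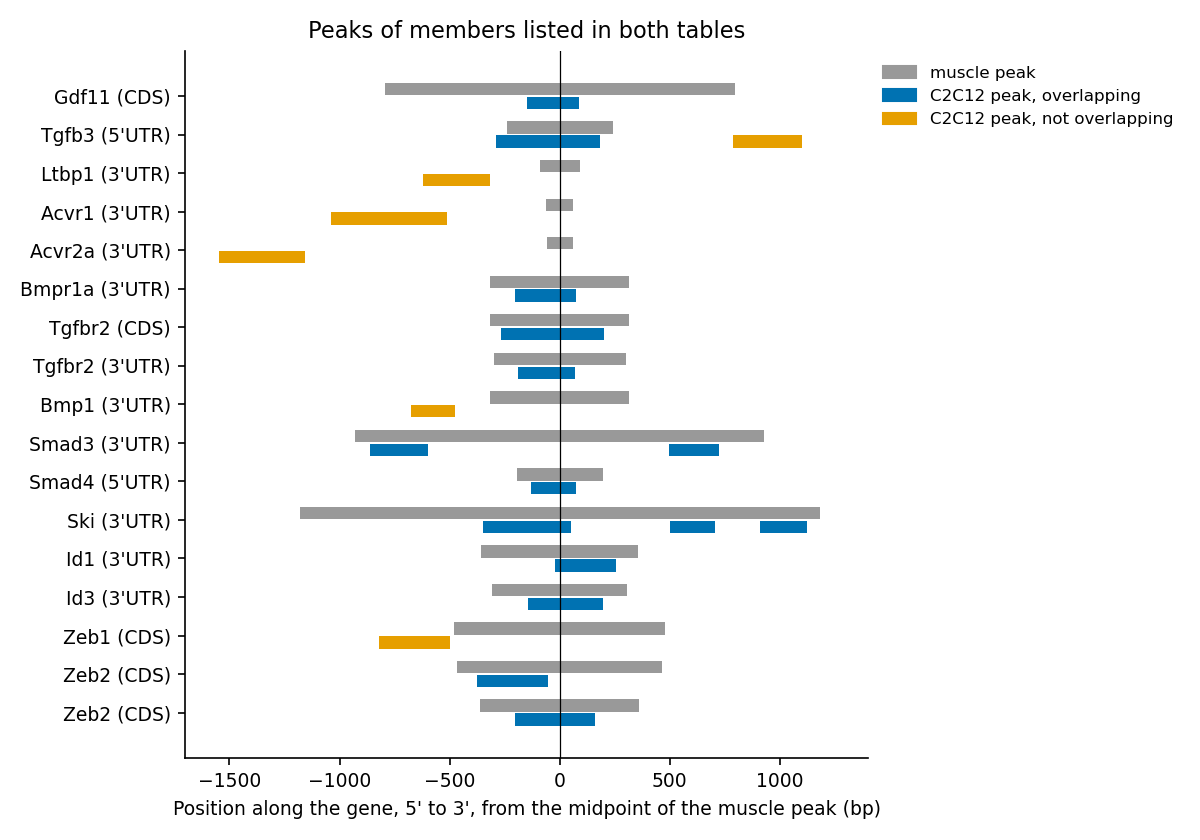
Positions in bp along the gene (horizontal axis), counted from the midpoint of the nearest muscle peak, of muscle peaks (grey, introns between exon blocks included) and of the C2C12 peaks within 2000 bp of it (blue where they overlap, orange where they do not), for members in both tables (vertical axis, with the class of the muscle peak). Of the 21 C2C12 peaks drawn, 15 overlap and 6 do not, and the long 3′UTR peaks of Smad3 and Ski span 2 and 3 C2C12 peaks.

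The genes with an overlap were Gdf11, Tgfb3, Bmpr1a, Tgfbr2, Smad3, Smad4, Ski, Id1, Id3 and Zeb2. The midpoints differed by 22 bp and 214 bp for the CDS peaks of Zeb2, 25 bp for Id3, 30 bp for Smad4, 31 bp for Gdf11, 34 bp for the CDS peak and 59 bp for the 3′UTR peak of Tgfbr2, 53 bp for Tgfb3, 64 bp for Bmpr1a and 116 bp for Id1. The 1858 bp muscle peak of Smad3 held both of its C2C12 peaks, and the 1945 bp muscle peak of Ski held 3 of its 4. The strongest muscle peaks of Tgfbr2 and Id1, however, had no C2C12 counterpart.

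Acvr1, Acvr2a, Bmp1, Inhba, Ltbp1 and Zeb1 had no overlap. The nearest C2C12 peaks of Ltbp1, Bmp1, Zeb1, Acvr1 and Acvr2a had midpoints 469 bp, 576 bp, 659 bp, 776 bp and 1351 bp away, in the same class as the muscle peak. The gaps between the edges of the peaks are shorter than these distances. By edges Zeb1 came closest to an overlap, with a C2C12 peak of 322 bp and a muscle peak of 959 bp. For Inhba, the muscle peak lay in the 3′UTR and the C2C12 peaks in coding exons. From the RefSeq start site that brought them closest, which is not the start of the gene, the muscle peak lay at 15346 bp, while the deposited distances of the C2C12 peaks were 2906 bp and 12088 bp. From the start of the gene the muscle peak lay at 22941 bp.

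Of 68 further pathway genes, listed as other ligands, modulators, receptor regulators and target genes, 24 (35.3%) had a muscle peak and 19 (27.9%) a C2C12 peak, against 16.9% and 17.6% of protein-coding genes, while 12 had both and 37 neither. The median of their highest fold enrichments in muscle was 12.8, below the 19.3 of all genes. The highest were the 3′UTR peak of Tab1, an adaptor of the TAK1 kinase, at 345, Rnf111, the gene of the ubiquitin ligase Arkadia, at 183, Hjv, a BMP coreceptor gene, at 153, Bmp5 at 128 and Pmepa1, a TGF-β target that restrains SMADs, at 105. Thbs1, whose product can activate latent TGF-β, was at 9.59 and had 1355 bp covered by 2 C2C12 peaks.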

How the data were processed

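m6A MeRIP-Seq was analysed for muscle (1 IP and 1 input library per genotype) and for C2C12 cells (2 IP libraries and 1 input library), grouped by their labels. The submitters' processing notes name TopHat, MACS2 and mm10, with no role for each. The authors deposited 1 peak table per sample type. For each muscle peak the authors deposited its position, exon blocks, class and listed GGAC sites, its p-value and its fold enrichment, the ratio of IP to input. Further deposited columns hold the log2 fold, p-value and FDR of the authors' test between genotypes and were not used. There were 0 unused columns of single samples, and no depth is known.

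Of 3983 muscle genes, 3811 matched the RefSeq annotation of GRCm38.p6 by symbol, and of 3970 C2C12 transcripts, 3930 matched. Of the muscle peaks with a match, 95.6% lay inside the span of their gene, but only 9.3% of the C2C12 peaks did, so no C2C12 coordinates are given. The notes name mm10, which is GRCm38, so the build of the C2C12 positions is not settled. Peaks were compared by distance from any RefSeq start site, with overlap of at least 1 base, taking muscle exon blocks and the distance deposited for C2C12. A gene was represented in muscle by its most enriched peak. Wilson intervals were set at 95%. Every member with a peak was described, in the order of the roles. Peak sequences by coordinates were not used here, and the Ltbp1 sequence, outside the rule for sequences, was chosen after its values were seen. The members and gene lists were chosen with earlier results of these data known. Scripts in Python 3.11.15 with pandas 2.3.3, numpy 2.4.6, scipy 1.17.1 and matplotlib 3.10.9 were tested on simulated data. Alternatives changed the symbols matched, the filter on weak peaks, the peak that stands for a gene, the classes counted and what counts as shared. The values of 1 further pathway gene are not reported here.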

Additional observations from a re-analysis of the deposited data

How the results depend on the processing

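No paired analysis was possible because each table holds 1 set of values for all of its libraries. With at least 2 peaks required, 13 members had a C2C12 peak in place of 34, and with overlap required by distance from a start site, a choice made after seeing the data, 10 members were shared in place of 16. The median fold enrichment of members in muscle was 20.8 with the mean over the peaks of a gene and 22.5 with the longest peak, where those of all genes were 16.8 and 18.3. The share of member muscle peaks with GGAC was 90% with 1 peak per gene, against 74.1% over the strongest peaks of all genes. The median covered length of members in C2C12 was 488 bp over exonic peaks, which leave out Smad5 alone. The same median over all genes is not given here. By number of peaks the median of members was 1 per gene. With a fold enrichment at or above the median of all peaks, 16 members had a muscle peak, and with a peak p of at most 1e-05, 19. The same counts over all genes are not given here, so these 2 describe the members only. With midpoints within 500 bp, or with the RefSeq gene start alone as start site, both chosen after seeing the data, 12 C2C12 peaks of members were shared in place of 15. That is 46.2% in each case, close to the 44.8% and 47.6% over the C2C12 peaks of all shared genes. The other alternatives moved no share beyond its interval and no count by over 1.5 times. Overlap by genome position was not run, because most C2C12 positions lie outside their genes on GRCm38. RRACH or DRACH in place of GGAC was not run, because no genome was used here. Leaving out each C2C12 IP library was not run, because the table holds no values per library. Depth sets an unknown limit on which peaks could be called.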

Other observations

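The positions listed for GGAC sites were compared with RefSeq start windows, from 250 bases before to 50 bases after a start. In muscle peaks of 1 exon block, 68 of 68 sites inside a window had GGAC at the listed place, and in peaks of more blocks 24 of 39 had. In peaks of more than 1 block, 896 of 2068 sites on the minus strand were listed over 3 bases outside the blocks, and 0 of 2046 on the plus strand. The listed places of sites in Gdf11 and Ski, on the minus strand with 2 blocks each, were therefore not used, and their numbers of sites were taken as listed.

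A p of 0 is listed for 8 of the 44 member muscle peaks and for 929 of all muscle peaks, so these have no order by p. The weakest member peak by p was that of Acvr1, at 0.0031, where the highest p of the table is 0.0087. No member peak overlaps a muscle peak of another gene.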
